A study of Homo sapiens with 6 samples.

Results

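The RNAs made from the mitochondrial genome were followed in 6 total RNA libraries of a human neuroblastoma cell line. All genes that the count tables place on chromosome M were taken, with no use of their values, which gave 37 of 60651 genes: 13 mRNAs, 2 rRNAs and 22 tRNAs. They were compared with each other by RNA class and by strand, between libraries, and between the libraries labelled Tet and EtOH. Of the 37 genes, 28 lie on the plus strand (12 mRNAs, both rRNAs and 14 tRNAs) and 9 on the minus strand (*MT-ND6* and 8 tRNAs). All 37 had enough counts to be tested.

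There were 3 libraries titled EtOH (ethanol) and 3 titled Tet (tetracycline), and the treatment lasted 5 days per the labels. The titles named IMR-5/75 and a tag spoke of a knockdown, with Control for EtOH and Induction for Tet. The protocol text instead described SK-N-SH cells with a tetracycline-inducible *MYCN* expression construct, grown as single clones under G418 and blasticidin, so by that text every culture, control or not, carried the construct and the tet repressor. In the study, SK-N-AS cells served as the expression model, and the shRNA against *MYCN* was induced in IMR-5/75 cells. The cell model was therefore left unnamed and libraries carry the names in their labels. The methods state in general that in vitro experiments were done on independent biological replicates, and no label says so of these libraries. The p-values measure only the spread between them.

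Human mitochondrial DNA is a small circle with almost no room between genes. Each strand is transcribed as a long precursor, and tRNAs punctuate it. RNase P and the nuclease ELAC2 cut on either side of each tRNA and thereby release the mRNAs and rRNAs that lie between. The mRNAs encode core subunits of respiratory chain complexes I, III and IV and of the ATP synthase, complex V. The rRNAs and tRNAs serve the organelle's own ribosomes, and every protein needed for transcription, processing and decay is encoded in the nucleus. Because steady-state levels depend on decay as well as synthesis, RNAs cut from the same precursor can differ widely in amount.

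The crowding of this genome decides what a gene-level count can hold. The 37 genes covered 15358 of 16569 bases. Of 36 pairs of neighbours along the numbered map, 20 touched without a base between them and 5 overlapped. Read pairs that lay over several genes had been divided evenly, so that only 6 of 222 values were whole numbers (within 1e-06), and reads were assigned without regard to strand. A count for *MT-ND6* or a minus-strand tRNA therefore cannot be told apart from antisense RNA made from the other strand. The tRNA genes are 59 to 75 bases long, shorter than a 150-base read, and each of their counts can include pairs from a neighbouring RNA or from an uncut precursor. Levels per kilobase are inflated for genes shorter than the sequenced fragment.

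The sequences at which neighbours meet show these limits. They are given from GRCh38, plus strand, 5′ to 3′. In the junction of the genes for ATP synthase subunits 8 and 6 (chrM:8507-8592), capitals mark the 46 bases that belong to both *MT-ATP8* and *MT-ATP6*.
MT-ATP8 and MT-ATP6: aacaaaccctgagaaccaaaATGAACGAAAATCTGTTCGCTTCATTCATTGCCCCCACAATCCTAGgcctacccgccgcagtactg
The capitals open with the ATG that starts subunit 6, inside the coding sequence of subunit 8. In the junction of 2 complex I genes (chrM:10740-10786), capitals mark the 7 shared bases, which again open with an ATG.
MT-ND4L and MT-ND4: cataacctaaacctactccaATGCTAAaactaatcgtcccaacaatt
At the start of the plus-strand rRNA stretch (chrM:618-677), the end of the phenylalanine tRNA is in lower case and the first 30 bases of the small-subunit rRNA are in capitals, because these neighbours had the most positive log2 fold changes between the groups.
MT-TF and MT-RNR1: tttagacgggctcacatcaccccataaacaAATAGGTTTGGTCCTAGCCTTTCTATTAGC
Neighbours were paired along the numbered map, which leaves out the stretch from *MT-TP* across the start of the numbering to *MT-TF*. Among these pairs, the longest stretch without a gene is the 31 bases in capitals between *MT-TN* and *MT-TC* (chrM:5720-5770). It is the known origin of light-strand DNA replication, and its ends pair with each other to form a hairpin.
between MT-TN and MT-TC: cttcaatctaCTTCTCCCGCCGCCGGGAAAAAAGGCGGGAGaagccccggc

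The tRNAs on which the results below turn are printed next, each in the direction of its gene with the anticodon in capitals. The methionine tRNA (chrM:4402-4469, plus strand) and 4 minus-strand tRNAs, for alanine (chrM:5587-5655), asparagine (chrM:5657-5729), cysteine (chrM:5761-5826) and tyrosine (chrM:5826-5891), were the members that varied most between libraries. The phenylalanine tRNA (chrM:577-647, plus strand) had the most positive log2 fold change between the groups.
MT-TF: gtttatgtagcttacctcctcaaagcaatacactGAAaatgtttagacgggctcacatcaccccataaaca
MT-TM: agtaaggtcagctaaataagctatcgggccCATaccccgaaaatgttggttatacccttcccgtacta
MT-TA: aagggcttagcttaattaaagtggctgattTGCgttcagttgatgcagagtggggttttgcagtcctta
MT-TN: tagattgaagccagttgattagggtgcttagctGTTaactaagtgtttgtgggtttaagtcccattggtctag
MT-TC: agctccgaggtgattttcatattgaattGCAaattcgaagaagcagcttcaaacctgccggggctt
MT-TY: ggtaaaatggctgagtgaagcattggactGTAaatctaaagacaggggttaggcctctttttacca
The 5 variable tRNAs were between 41.1% and 45.6% G plus C (median 43.5%), and the other 17 tRNAs between 23.1% and 49.3% (median 36.2%). The minus strand differs from the plus strand in base content: *MT-ND6*, read in its own direction, was 35.6% G, against 6.28% to 16.2% (median 11.2%) for the 12 plus-strand mRNAs. *MT-TA*, *MT-TN*, *MT-TC* and *MT-TY* lie side by side around the replication origin, whereas *MT-TM* lies upstream of *MT-ND2*.

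Library totals ran from 27933212 to 40497909 counts, and 3 counts corresponded to 0.0741 to 0.107 CPM (counts brought to the same total in every library). Of 7 adrenergic neuroblastoma markers 5 were at 1 CPM or more in every library. *TH* and *DBH*, enzymes of catecholamine synthesis, were at or under 0.453 CPM. The summed adrenergic markers ran from 556 to 655 CPM in EtOH and from 654 to 771 CPM in Tet. Of 6 mesenchymal-state or Schwann-type markers 2 reached 1 CPM in every library, and their sum ran from 111 to 206 CPM in EtOH and from 95.4 to 142 CPM in Tet. *MYCN* differed by -0.07 on the log2 scale, Tet minus EtOH, with a standard error (SE) of 0.23 (adjusted p = 0.956 by edgeR). It ran from 156 to 256 CPM in EtOH and from 145 to 200 CPM in Tet. Neither a fall nor a rise of *MYCN* RNA was therefore detected between the groups. The study reports that its induced *MYCN* knockdown was seen by western blot, which measures protein. It also reports that circular RNAs rose globally after that knockdown. Neither protein nor circular RNA was measured here, so whether the induction worked in these cultures was not tested. In bulk RNA, fewer cells and less RNA per cell cannot be told apart. The part of these differences in the values below was not tested.

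The mRNAs made up nearly all of the mitochondrial signal. As a share of all counts in a library, they took 9.72%, 3.93% and 8.21% in EtOH replicates 1 to 3 and 6.55%, 5.62% and 8.86% in Tet replicates 1 to 3. The ranges overlapped, and EtOH replicate 2 was the lowest library. The means were 7.29% ± 3.01 for EtOH and 7.01% ± 1.67 for Tet (SD, n = 3 each; exact two-sided permutation test, p = 1). The 95% Wilson intervals of these shares are at most 0.0202 percentage points wide and cover counting error only, so the spread between replicates is far larger than counting error.

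The tRNA genes took a much smaller share that varied less. It was 0.274%, 0.187% and 0.273% in EtOH and 0.265%, 0.228% and 0.274% in Tet, again lowest in EtOH replicate 2. The means were 0.245% ± 0.0503 and 0.255% ± 0.0243 (SD, n = 3 each; exact two-sided permutation test, p = 0.9). Pairs from neighbouring or uncut RNAs can be among these counts, so the share cannot be read as that of mature tRNAs. The rRNAs, which are the bulk of mitochondrial RNA in a cell, were almost gone from these libraries: they took between 0.00403% and 0.0107% of counts (exact two-sided permutation test, p = 0.3). Adjusted over the 4 shares tested (all genes and each class), each p was 1. With 3 libraries against 3 this test cannot go below 0.1. RNA had been depleted of rRNA by enzymatic digestion, and the sources used here do not say whether the probes cover the mitochondrial rRNAs. The nuclear rRNA genes, 47 in the tables, summed to 0.390 to 2.24 CPM, and the mitochondrial rRNAs to 41.8 to 109 CPM.

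**Figure D1:**
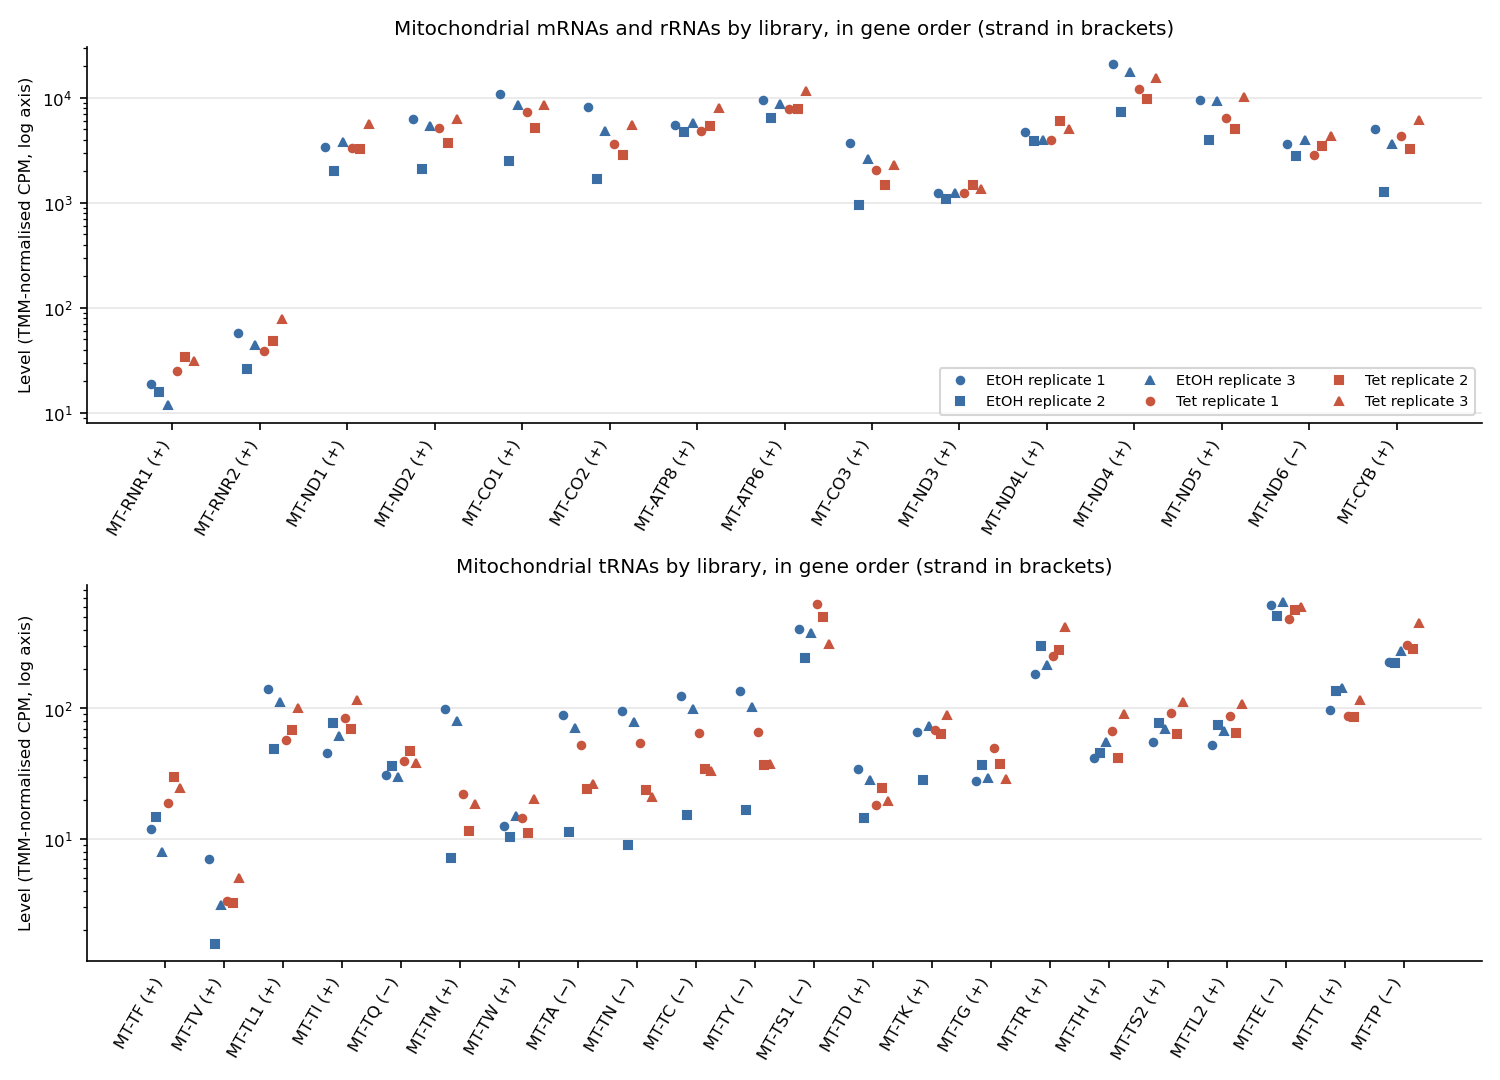
Level of each mitochondrial gene in each library, in TMM-normalised CPM on a log axis, with genes in map order and strand in brackets; the mRNAs and rRNAs are above and the tRNAs below, EtOH is blue and Tet red, and symbols mark the replicate number. The mRNAs lie between 959 and 20979.7 CPM and the rRNAs between 11.7 and 77.6 CPM, and EtOH replicate 2 is the lowest library for 26 of 37 genes.

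Levels of single genes are given in CPM after TMM scaling, which divides counts by an effective library size. *MT-ND4*, which encodes a proton-pumping subunit of complex I, had the most counts of the mRNAs. It was at 20979.7, 7292 and 17615 CPM in EtOH and at 12040.0, 9689.6 and 15372 CPM in Tet, and the groups overlapped. Over the 6 libraries, the complex I gene *MT-ND5* ran from 3999 to 10267 CPM, *MT-ND2* from 2106 to 6325, *MT-ND1* from 2019.6 to 5604 and *MT-ND4L* from 3908 to 5957. *MT-ND3* had the fewest counts of the complex I genes and was among the steadiest. It was at 1237, 1095 and 1230.2 CPM in EtOH and at 1241, 1482 and 1362 CPM in Tet, and every Tet library lay above every EtOH library by a small margin.

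The complex IV genes encode the catalytic core of cytochrome c oxidase and were among the least steady mRNAs. *MT-CO1* was at 10792, 2525 and 8623 CPM in EtOH and at 7288, 5205 and 8462 CPM in Tet. *MT-CO2* was at 8141, 1680.3 and 4808 CPM in EtOH and at 3612, 2878 and 5453 CPM in Tet. *MT-CO3* was at 3693, 959 and 2635 CPM in EtOH and at 2059, 1475 and 2305 CPM in Tet. In each of them the Tet libraries lay inside the range of the EtOH libraries, which ran from EtOH replicate 2 up to EtOH replicate 1.

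*MT-CYB*, the cytochrome b gene and the only mitochondrial gene of complex III, showed the same low library but not the same high libraries. It was at 5004, 1271 and 3673 CPM in EtOH and at 4314, 3231 and 6136 CPM in Tet. Of complex V, *MT-ATP8* was at 5478, 4751 and 5727 CPM in EtOH and at 4834, 5441 and 7956 CPM in Tet. *MT-ATP6* was at 9548, 6406 and 8649 CPM in EtOH and at 7783, 7891 and 11583 CPM in Tet. These overlapping genes varied little, with the highest library at 1.67 and 1.81 times the lowest, compared with 4.83 for *MT-CYB*, 4.84 for *MT-CO2* and 4.27 for *MT-CO1*.

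Per kilobase, the order of the mRNAs began with the shortest. *MT-ATP8* (207 bases) had a mean of 27527 ± 5657 CPM per kb (SD, n = 6), *MT-ND4L* (297 bases) 15519 ± 2746, *MT-ATP6* 12692 ± 2608 and *MT-ND4* 10037 ± 3713. Then came *MT-ND6* with 6708, *MT-CO2* with 6475, *MT-ND2* with 4641, *MT-CO1* with 4636, *MT-ND5* with 4108, *MT-ND1* with 3718, *MT-ND3* with 3684 and *MT-CYB* with 3451 CPM per kb. *MT-CO3* was last with 2790.3 CPM per kb. Of the 12 steps in this order, only that from *MT-ATP8* to *MT-ND4L* separated genes whose ranges over the 6 libraries did not overlap. *MT-ATP8* shares 46 of its 207 bases with *MT-ATP6*, and both it and *MT-ND4L* are short, so that their places at the top cannot be told apart from the effect of fragment length described above.

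The rRNAs lie next to each other with the valine tRNA between them. *MT-RNR1*, the small-subunit rRNA, was at 18.7, 15.6 and 11.7 CPM in EtOH and at 25.1, 34.2 and 31.2 CPM in Tet. *MT-RNR2*, the large-subunit rRNA, was at 57.4, 26.2 and 43.9 CPM in EtOH and at 38.4, 48.3 and 77.6 CPM in Tet. All Tet libraries were above all EtOH libraries for the small-subunit rRNA, whereas the groups overlapped for the large-subunit rRNA. Per kilobase they were at 23.8 ± 9.31 (*MT-RNR1*) and 31.2 ± 11.3 (*MT-RNR2*) CPM per kb (SD, n = 6), with *MT-RNR2* higher in 4 of 6 libraries. The tRNAs inside the same stretch held few counts too. *MT-TV*, between the rRNAs, had the fewest counts of the 37 genes, at 1.59 to 7.09 CPM, and its smallest count in a library was 44. *MT-TF*, in front of *MT-RNR1*, was at 8.0 to 29.8 CPM. Immediately downstream, *MT-TL1*, a leucine tRNA next to *MT-RNR2* and *MT-ND1*, was at 48.8 to 141 CPM, and *MT-ND1* was at 2019.6 CPM or more in every library.

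Counts per kilobase of the tRNA genes spanned a wide range. They can include pairs from neighbouring or uncut RNAs, as described above, and cannot be read as amounts of mature tRNA. *MT-TE* (glutamate, minus strand, between *MT-ND6* and *MT-CYB*) had the highest mean, 8277 ± 938 CPM per kb (SD, n = 6). *MT-TS1* (serine, minus strand, between *MT-CO1* and *MT-TD*) followed with 5980.2 ± 2016, *MT-TP* (proline) with 4331 ± 1238 and *MT-TR* (arginine) with 4237 ± 1272. The range of *MT-TR* did not overlap that of the next gene, *MT-TT* (threonine), at 1682 ± 374 CPM per kb. From *MT-TT* down to *MT-TW*, neighbours in the order overlapped at every step, and *MT-TV*, at 56.6 ± 27.5 CPM per kb, lay apart below *MT-TW* (tryptophan), at 206 ± 53.1. Of the 4 highest tRNAs, 3 are minus-strand genes.

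**Figure D2:**
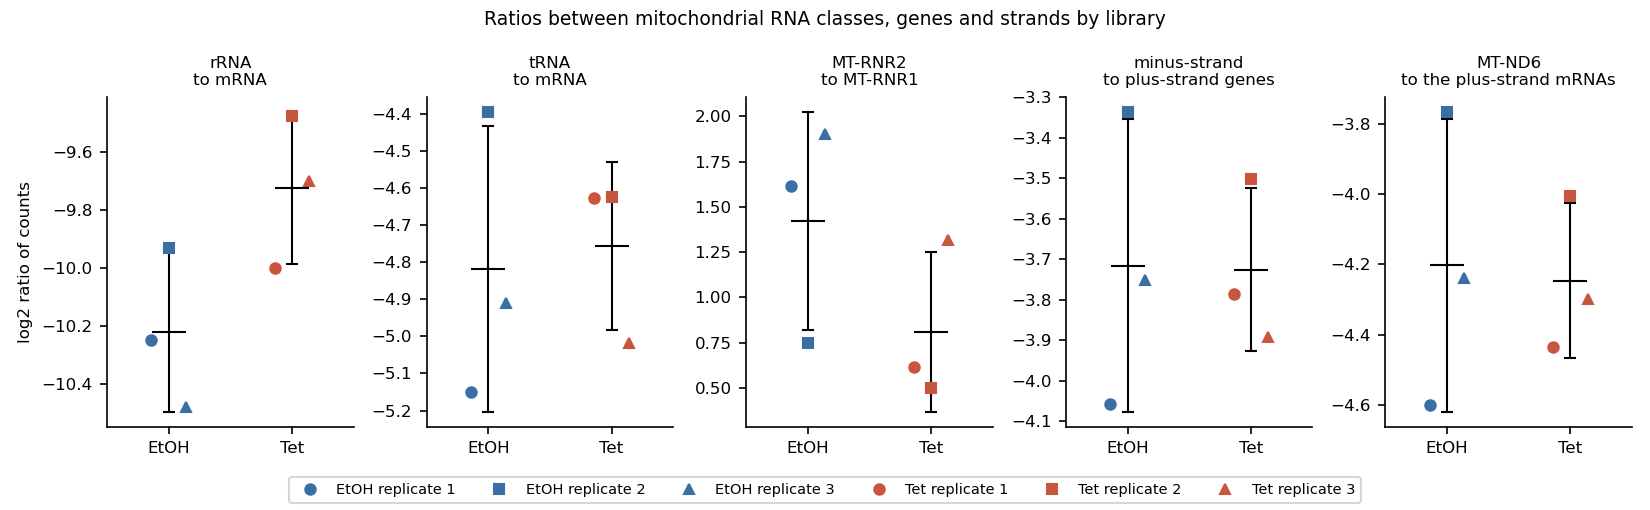
log2 ratios of summed counts in each library for 5 pairs of mitochondrial RNA classes, genes or strands; points are libraries (shape gives the replicate number), horizontal bars the group mean and vertical bars the SD (n = 3), and each panel has its own axis. EtOH and Tet overlap in all 5 panels, and replicate 2 of each group is the highest of its group in every panel except that of *MT-RNR2* to *MT-RNR1*.

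Ratios within a library do not depend on library size. The tRNA counts equalled 2.82%, 4.75% and 3.33% of the mRNA counts in EtOH and 4.04%, 4.05% and 3.09% in Tet. The rRNA counts equalled 0.0823%, 0.103% and 0.0700% of the mRNA counts in EtOH and 0.0978%, 0.141% and 0.120% in Tet. Neither ratio separated the groups: the log2 difference, Tet minus EtOH, was 0.06 for tRNA to mRNA (exact two-sided permutation test, p = 0.9) and 0.50 for rRNA to mRNA (p = 0.2, exact test; 0.5 adjusted over the 5 ratios). The large-subunit rRNA held 3.06, 1.68 and 3.74 times the counts of the small-subunit rRNA in EtOH and 1.53, 1.42 and 2.49 times in Tet, a log2 difference of -0.61 (exact two-sided permutation test, p = 0.2; 0.5 adjusted). It was -0.95 without EtOH replicate 2 and -0.37 without EtOH replicate 3. Among the EtOH libraries, replicate 2 again stood apart from the other two in this ratio, and its value lay inside the range of the Tet libraries.

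By strand, the 9 minus-strand genes held 6.01%, 9.90% and 7.42% of the counts of the 28 plus-strand genes in EtOH and 7.26%, 8.83% and 6.74% in Tet. The groups overlapped, with a log2 difference of -0.01 (exact two-sided permutation test, p = 1). From the median of counts per kilobase over the genes of each strand, which gives each gene the same weight, the difference was -0.63 (exact two-sided permutation test, p = 0.4). Much of the minus-strand count was *MT-ND6*, a complex I subunit and the only mRNA on that strand. It was at 3667, 2791 and 3994 CPM in EtOH and at 2869, 3445 and 4364 CPM in Tet. Relative to the plus-strand mRNAs it stood at 4.13%, 7.34% and 5.29% in EtOH and at 4.63%, 6.23% and 5.08% in Tet, a log2 difference of -0.04 (exact two-sided permutation test, p = 0.9). Replicate 2 had the highest value of each group. Counts were divided very differently in the tRNAs, in which the 8 minus-strand genes held 66.4%, 54.8% and 63.6% of tRNA counts in EtOH and 64.9%, 63.9% and 54.5% in Tet. Of tRNA counts, *MT-TE* took 18.4% to 26.2% and *MT-TS1* 11.2% to 24.2% over the 6 libraries. Reads were counted without regard to strand. These shares are therefore by gene and cannot be told apart from antisense RNA or from pairs of neighbouring RNAs.

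The comparison of Tet with EtOH asks whether mitochondrial RNA differed between the groups after 5 days of treatment. With only these groups, an effect of tetracycline itself cannot be told apart from an effect of what it induced. By the edgeR quasi-likelihood test, adjusted over 22443 genes, 0 of 37 mitochondrial genes passed an adjusted p of 0.05, and 0.236% of all genes tested passed it. At an unadjusted p under 0.05 there were 4 of 37, namely *MT-TF*, *MT-RNR1*, *MT-TM* and *MT-TP* (10.8% of all genes tested). Of the 37 log2 fold changes 22 were above 0 and 15 below, with a median of 0.19, beside -0.0061 for all genes tested. The median was 0.14 for the mRNAs (-0.32 to 0.46), 0.28 for the tRNAs (-1.84 to 1.08) and 0.67 for the rRNAs (0.37 and 0.97). The SE ran from 0.15 to 0.74, so that changes of the size of most of these medians were not detectable in this design.

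The groups did not overlap for 5 genes, all higher in Tet: *MT-TF*, *MT-RNR1*, *MT-TQ*, *MT-ND3* and *MT-TP* (9.2% of all genes tested had every Tet library above every EtOH library). No mitochondrial gene had every Tet library below every EtOH library (8.28% of all genes tested). *MT-TF*, at 11.9, 14.8 and 8.0 CPM in EtOH and at 18.8, 29.8 and 24.7 CPM in Tet, had a log2 fold change of 1.08, with an SE of 0.27 and an adjusted p of 0.182 by edgeR. *MT-RNR1*, its neighbour, had 0.97, with an SE of 0.22 and an adjusted p of 0.142 by edgeR. These are the neighbours at the junction printed above, and both had higher values in all 3 Tet libraries. Read pairs can cover both genes, so the likeness of their changes cannot be told apart from shared reads. The part of rRNA depletion in the *MT-RNR1* values was not tested. With the replicate number as a block, both passed, at edgeR adjusted p-values of 0.0202 (*MT-TF*) and 0.0295 (*MT-RNR1*), in a fit in which 1.88% of all genes tested were called higher in Tet. They also passed under DESeq2 (adjusted p = 0.0315 and 0.0193, with 1.29% of all genes called higher) and without a low-count filter (edgeR adjusted p = 0.0423 and 0.0462, with 0.457% called higher). *MT-TF* passed without EtOH replicate 2 (edgeR adjusted p = 0.0299, with 1.51% called higher). Over the fits that left out a library, their adjusted p ran up to 0.631 and 0.584. No label says what same-numbered libraries shared beyond the number, as described with the alternatives.

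*MT-TP*, the proline tRNA at the end of the gene map, was at 227, 222 and 273 CPM in EtOH and at 307, 286 and 453 CPM in Tet. Its log2 fold change was 0.53, with an SE of 0.20 and an adjusted p of 0.394 by edgeR. *MT-TQ*, the minus-strand glutamine tRNA, was at 30.9, 36.1 and 30.1 CPM in EtOH and at 39.7, 47.4 and 38.4 CPM in Tet (log2 difference 0.37 with an SE of 0.16, adjusted p = 0.466 by edgeR). For both, the gap between the groups was smaller than the spread within Tet.

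**Figure D3:**
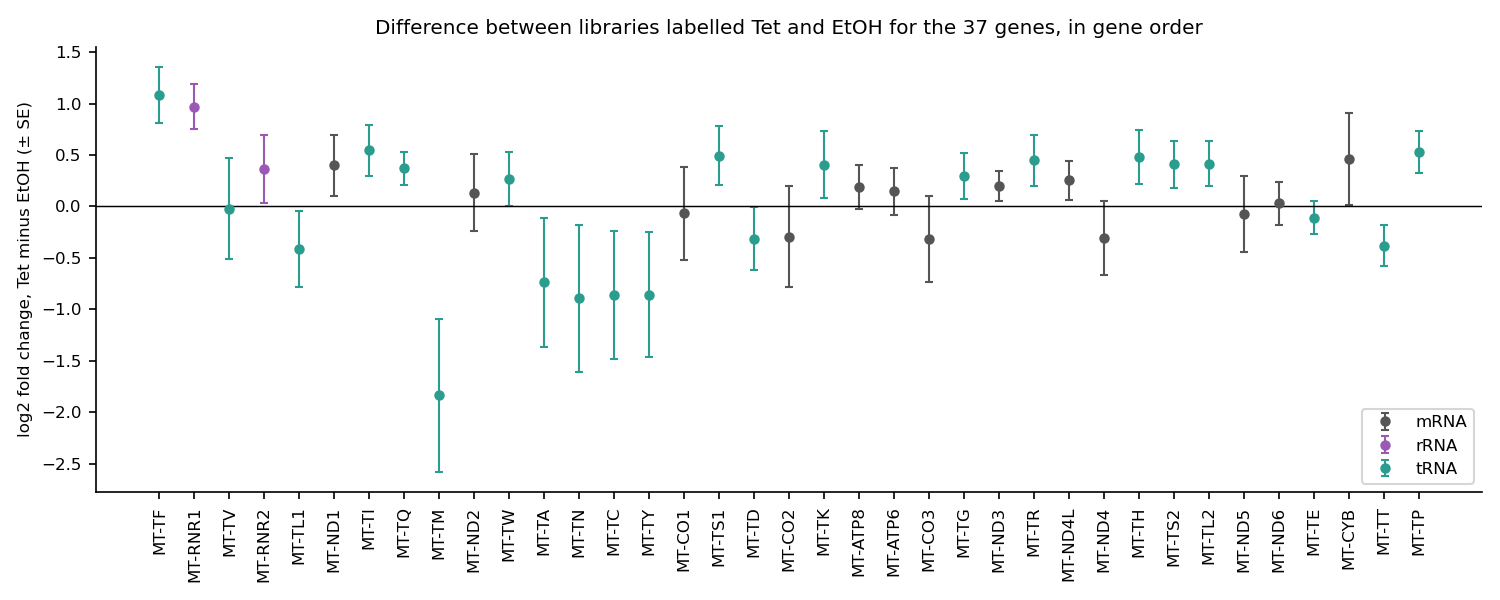
log2 fold change, Tet minus EtOH, of each of the 37 mitochondrial genes in map order from the edgeR fit; bars are ± 1 SE (3 libraries in each group), and colours give the RNA class. *MT-TF* (1.08) and *MT-RNR1* (0.97) are the highest and *MT-TM* (-1.84) the lowest, with the widest bars on *MT-TM*, *MT-TA*, *MT-TN*, *MT-TC* and *MT-TY*.

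The lowest log2 fold change belonged to *MT-TM*, the methionine tRNA that also carries the starting amino acid of mitochondrial proteins. It was at 99.0, 7.14 and 79.8 CPM in EtOH and at 22.0, 11.5 and 18.6 CPM in Tet. EtOH replicates 1 and 3 were high, and EtOH replicate 2 lay below every Tet library. The log2 fold change was -1.84, with an SE of 0.74 and an adjusted p of 0.424 by edgeR. Without EtOH replicate 2 it was -2.36, with an edgeR adjusted p of 0.00518, in a fit in which 1.38% of all genes tested were called lower. The other fits that left out a library gave -2.04 to -1.34, with adjusted p-values of 0.622 to 0.833.

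The 4 minus-strand tRNAs around the replication origin showed the same order of EtOH libraries. *MT-TA* was at 88.6, 11.4 and 71.5 CPM in EtOH and at 52.1, 24.1 and 26.7 CPM in Tet. *MT-TN* was at 95.3, 9.09 and 78.9 CPM in EtOH and at 54.1, 23.7 and 21.0 CPM in Tet. *MT-TC* was at 125, 15.4 and 98.9 CPM in EtOH and at 64.7, 34.2 and 33.3 CPM in Tet. Each was high in EtOH replicates 1 and 3, lowest in EtOH replicate 2, and in between in all Tet libraries, with Tet replicate 1 above Tet replicates 2 and 3. *MT-TY*, which shares 1 base with *MT-TC*, was at 136, 16.8 and 102 CPM in EtOH and at 66.6, 37.1 and 37.4 CPM in Tet. Their log2 fold changes lay between -0.89 and -0.74, with SEs of 0.61 to 0.71 and edgeR adjusted p-values of 0.697 to 0.756. Without EtOH replicate 2, *MT-TC* (-1.34, edgeR adjusted p = 0.0346) and *MT-TY* (-1.34, edgeR adjusted p = 0.0284) passed, whereas *MT-TA* (-1.22, adjusted p = 0.0608) and *MT-TN* (-1.40, adjusted p = 0.0645) did not. In that fit 1.38% of all genes tested were called lower. Without EtOH replicate 1, in contrast, the log2 fold changes shrank to -0.29 (*MT-TA*), -0.43 (*MT-TN*), -0.39 (*MT-TC*) and -0.35 (*MT-TY*), and with the replicate block they were -0.42, -0.52, -0.51 and -0.50. Without Tet replicate 1, *MT-TA* stood at -1.17 and *MT-TN* at -1.45. A read pair can cover more than 1 of these 4 tRNA genes, or a neighbouring or uncut RNA. The likeness of their values therefore cannot be told apart from shared reads.

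These 5 tRNAs had the widest range between libraries of all members. The highest library was 13.9 times the lowest for *MT-TM*, 10.5 for *MT-TN*, 8.14 for *MT-TC*, 8.09 for *MT-TY* and 7.77 for *MT-TA*, and the median over the 37 genes was 2.61. For the 7887 nuclear genes with a mean of at least 10 CPM the median was 1.61, and 0.0634% of them varied as much as *MT-TM* and 0.444% as much as *MT-TA*. The smallest count of these tRNAs in any library was 198. As a share of tRNA counts, *MT-TM* took 3.80%, 0.369% and 3.02% in EtOH and 0.838%, 0.483% and 0.668% in Tet, and the 6 libraries had the same order as in CPM.

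Other minus-strand tRNAs did not follow them. *MT-TE* was the steadiest member, at 619.6, 507 and 650.2 CPM in EtOH and at 484, 569 and 597 CPM in Tet, a range of 1.34 times. *MT-TS1* was at 409, 243 and 377 CPM in EtOH and at 634, 501 and 313 CPM in Tet (log2 difference 0.49 with an SE of 0.28, adjusted p = 0.597 by edgeR). Both were lower in EtOH replicate 2 than in the other EtOH libraries, but by far less than the 4 tRNAs at the origin.

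In several plus-strand tRNAs, and in the minus-strand *MT-TQ* given above, EtOH replicate 2 was instead the highest EtOH library. *MT-TI* (isoleucine) was at 45.9, 77.5 and 61.5 CPM in EtOH and at 84.2, 69.4 and 116 CPM in Tet. *MT-TR* was at 183, 301 and 215 CPM in EtOH and at 252, 282 and 419.5 CPM in Tet. *MT-TG* (glycine) was at 27.9, 36.9 and 29.6 CPM in EtOH and at 49.9, 37.3 and 28.8 CPM in Tet. The groups overlapped in all 3. The histidine, serine and leucine tRNAs *MT-TH*, *MT-TS2* and *MT-TL2* lie end to end between *MT-ND4* and *MT-ND5*, and the latter pair ordered the 6 libraries in the same way. *MT-TS2* was at 55.8, 77.0, 69.2, 92.1, 64.0 and 112 CPM in the order EtOH 1 to 3 and Tet 1 to 3, and *MT-TL2* at 53.0, 75.2, 67.1, 87.0, 65.0 and 108 CPM. Read pairs can cover both genes, so the likeness of these values cannot be told apart from shared reads. *MT-TH* ran from 41.6 to 90.4 CPM.

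The remaining tRNAs showed no separation of the groups. *MT-TT* ran from 97.4 to 143 CPM in EtOH and from 86.3 to 115 CPM in Tet (log2 difference -0.38 with an SE of 0.20, adjusted p = 0.551 by edgeR). *MT-TK* (lysine) ran from 28.2 to 73.7 CPM in EtOH and from 64.2 to 89.5 CPM in Tet. *MT-TD* (aspartate) ran from 14.4 to 34.4 CPM in EtOH and from 18.2 to 24.5 CPM in Tet. For *MT-TK* and *MT-TD* the lowest value belonged to EtOH replicate 2. *MT-TW* ran from 10.5 to 20.4 CPM over the 6 libraries.

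The make-up of the mRNA pool, the share of each gene in the counts of the 13 mRNAs, was looked at after the levels were known and is given as a description. Complex I genes took 53.6% to 57.1% in every library. Complex IV genes took 24.4%, 12.7% and 20.2% in EtOH and 19.98%, 16.3% and 18.0% in Tet, and complex V genes 16.2%, 27.3% and 18.1% in EtOH and 19.4%, 22.7% and 21.6% in Tet. EtOH replicate 2 had the lowest complex IV share and the highest complex V share, and Tet replicate 2 came next in both. EtOH replicate 1 lay at the opposite end in both. *MT-CYB* took 5.41%, 3.12% and 4.62% in EtOH and 6.65%, 5.50% and 6.80% in Tet, and *MT-ND1* took 3.68%, 4.95% and 4.74% in EtOH and 5.09%, 5.50% and 6.21% in Tet. These were 2 of 13 mRNAs whose share lay higher in every Tet library, and the other 11 overlapped; of all genes tested, 9.2% had a level that lay so. *MT-ND4* took 22.7%, 17.9% and 22.2% in EtOH and 18.6%, 16.5% and 17.0% in Tet.

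**Figure D4:**
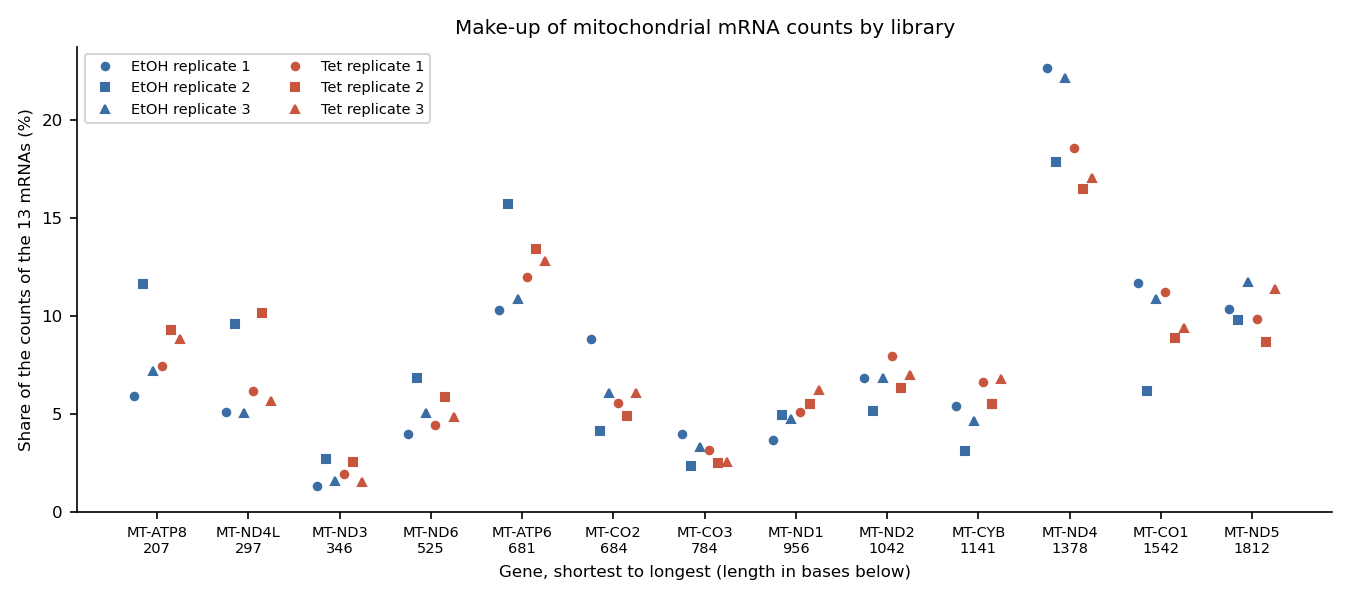
Share of each of the 13 mitochondrial mRNAs in their summed counts, in percent, for each library; genes are ordered from shortest to longest with the length in bases below the name, EtOH is blue and Tet red, and squares mark replicate 2 of each group. The squares lie high for the short genes *MT-ATP8*, *MT-ND4L* and *MT-ND3* and low for *MT-CO1* and *MT-CYB* within their group, while *MT-ATP6* and *MT-CO2*, of nearly equal length, lie on opposite sides.

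Short genes took a larger part of the mRNA counts in replicate 2 of each group, with exceptions to an order by length. The 4 mRNAs under 600 bases, *MT-ATP8*, *MT-ND4L*, *MT-ND3* and *MT-ND6*, took 16.3%, 30.7% and 18.8% of mRNA counts in EtOH and 19.9%, 27.8% and 20.8% in Tet. Replicate 2 of each group was the highest of its group. Across the 13 mRNAs, the log2 ratio of the share in EtOH replicate 2 to the mean of EtOH replicates 1 and 3 fell with log2 length (Pearson's r = -0.76, Spearman's rho = -0.72), and the same ratio for Tet replicate 2 did so too (r = -0.79, rho = -0.80). Length did not order every gene: *MT-ATP6* (681 bases) and *MT-CO2* (684 bases) departed by 0.57 and -0.85 in EtOH replicate 2 and by 0.11 and -0.24 in Tet replicate 2, and the longest, *MT-ND5* (1812 bases), by -0.17 in EtOH replicate 2. The departures of EtOH replicate 2 and of Tet replicate 2 correlated with each other across the 13 mRNAs (Pearson's r = 0.88, Spearman's rho = 0.83). These correlations are across genes of the same libraries, which overlap in reads and are not independent, and no p is given. Nuclear protein-coding genes with a mean of at least 10 CPM were read by level, not by share. Their median log2 ratio of levels (CPM + 0.5) for EtOH replicate 2 was -0.0087 for 40 genes with under 1000 exon bases. It was 0.23 for 734 genes from there to under 3000 and 0.15 for 6173 longer genes. For Tet replicate 2 these medians were -0.07, 0.09 and 0.09. The measure and the length limits differ from those used for the 13 mRNAs, so the values cannot be set side by side. The study set a lower limit for RNA integrity before sequencing. Values of integrity or fragment length for each library are not given in the sources used here, and their part was not tested.

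The nuclear genes that transcribe, process, stabilise and degrade mitochondrial RNA were read from a list of 70 genes in 8 roles, 69 of which were tested. Of these, 1 was lower in Tet and 0 were higher by the edgeR quasi-likelihood test (0.236% of all genes tested passed), and 5 of 69 had an unadjusted p under 0.05, a smaller share than the 10.8% of all genes tested. The median log2 fold change was -0.15, beside -0.0061 for all genes, with 54 genes below 0 and 15 above. For 10 genes every Tet library was below every EtOH library (8.28% of all genes tested), and for 0 the reverse. The transcription genes (8) had a median of -0.17, the rRNA maturation genes (8 tested) -0.17, the mtDNA maintenance genes (11) -0.18 and the tRNA modification genes (12) -0.14. The median was -0.06 for precursor processing (7 genes), -0.12 for mRNA stability and polyadenylation (12), -0.18 for degradation (5) and -0.08 for regulators of biogenesis (6).

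The 5 genes at an unadjusted p under 0.05 were *PPARGC1B*, *REXO2*, *PTCD2*, *LRPPRC* and *OSGEPL1*, all with lower values in Tet; the last 3 were named after their values were seen. *LRPPRC*, which binds and stabilises mitochondrial mRNAs, was at 589.7, 644 and 588 CPM in EtOH and at 477, 489 and 438 CPM in Tet (log2 difference -0.37 with an SE of 0.14, adjusted p = 0.369 by edgeR). The groups lay apart in *LRPPRC*, but not past the threshold over all genes.

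The gene past the threshold was *PPARGC1B*, a coactivator that promotes mitochondrial biogenesis. It was at 12.7, 15.8 and 12.5 CPM in EtOH and at 5.18, 4.74 and 5.39 CPM in Tet, a log2 fold change of -1.42, with an SE of 0.20 and an adjusted p of 0.0428 by edgeR. The groups were far apart, but the call was lost without any library other than EtOH replicate 2: the adjusted p was 0.153 without EtOH replicate 1, 0.229 without EtOH replicate 3, and 0.310, 0.211 and 0.207 without Tet replicates 1, 2 and 3. The log2 fold change stayed between -1.51 and -1.37 in these 5 fits, in which 0 to 1 of all genes were called in each direction. Its relative *PPARGC1A* was at 73.3, 31.3 and 68.4 CPM in EtOH and at 95.7, 70.7 and 85.2 CPM in Tet (log2 difference 0.54 with an SE of 0.30, adjusted p = 0.580 by edgeR; 0.25 without EtOH replicate 2). The other named genes of the list did not pass. *REXO2*, a nuclease of short mitochondrial RNA fragments, was at 34.5, 21.3 and 35.0 CPM in EtOH and at 21.9, 17.4 and 21.6 CPM in Tet (log2 difference -0.57 with an SE of 0.23, adjusted p = 0.409 by edgeR, and 0.0384 without EtOH replicate 2).

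*PTCD1*, a pentatricopeptide protein that binds mitochondrial leucine tRNAs and their precursors, ran from 1.62 to 6.28 CPM (log2 difference -0.60 with an SE of 0.47, adjusted p = 0.724 by edgeR; -0.996 without EtOH replicate 2 and -0.30 without EtOH replicate 1), and its lowest value belonged to EtOH replicate 2. *HSD17B10*, a subunit of mitochondrial RNase P, and *POLRMT*, the mitochondrial RNA polymerase, had the other large differences upward (log2 differences of 0.53 and 0.47 with SEs of 0.61 and 0.57, adjusted p = 0.837 and 0.845 by edgeR), at levels of only 0.198 to 0.906 and 0.451 to 2.01 CPM. Without Tet replicate 3, *POLRMT* stood at -0.38 and *HSD17B10* at 0.028, and without EtOH replicate 1 *HSD17B10* stood at 1.21.

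Nuclear copies of mitochondrial DNA bear on these counts, because only unique alignments were counted. The tables held 404 nuclear genes named as such copies, of which 150 to 164 had counts in a library, and they summed to 267 to 568 CPM, or 0.542% to 0.658% of the mitochondrial counts. The most abundant was *MTATP6P1* (chr1:633696-634376, GRCh38), a copy of *MT-ATP6* that differs from it at 10 of 681 bases (98.5% identity). It was at 342, 56.1 and 290.5 CPM in EtOH and at 247, 134 and 337 CPM in Tet. As a share of the *MT-ATP6* counts this was 3.58%, 0.875% and 3.36% in EtOH and 3.17%, 1.69% and 2.91% in Tet, lowest in replicate 2 of each group. The next, *MTCYBP32* and *MTND4LP9*, were at 7.28 to 13.8 and 5.97 to 11.1 CPM.

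In the stretch of chromosome 1 around this copy (chr1:628062-635922), which holds 7 annotated copies of mitochondrial protein genes, exact matches were sought for every 150-base window of the 13 mRNAs. Such windows were found for *MT-ND2* (15.7% of its windows), *MT-CO1* (14.5%) and *MT-ND1* (1.12%), and for none of the other 10 genes. A read that lies in such a window cannot be placed by its own bases, so that counts of *MT-ND2* and *MT-CO1* may be too low. The tRNA and rRNA genes were not searched against this stretch. *MT-TM*, *MT-TA*, *MT-TN*, *MT-TC* and *MT-TY* lie beside *MT-ND2* or between it and *MT-CO1*. Whether matches on chromosome 1 bear on their counts was not tested. Other nuclear copies were not searched.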

How the data were processed

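Total RNA of 6 libraries was analysed. Per the file headers, the authors counted uniquely aligned read pairs over exons with featureCounts 1.6.4, dividing a pair evenly among the genes it overlapped and giving no strand option. The labels name STAR 2.7.1a, featureCounts 1.5.1 and GRCh38, and the study's methods describe other counting options, including strand. The headers were followed here. The labels name a stranded mRNA kit for the libraries and do not say whether poly(A) capture was used. Reads were 150 bases, paired.

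The deposited values were estimated counts, not whole, and were rounded to whole numbers, since the planned test had assumed whole counts. They were tested with edgeR 4.0.16 (quasi-likelihood F test, R 4.3.3) after filterByExpr and TMM scaling, with Benjamini-Hochberg adjustment over 22443 genes and a threshold of 0.05. The SE is the log2 fold change divided by the square root of F. Shares and ratios were compared by exact two-sided permutation tests (scipy 1.17.1), with adjustment over 4 shares and 5 ratios. The edgeR step was tested on simulated data. DESeq2 1.42.0 served as an alternative.

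Depth was between 27933212 and 40497909 counts, and external spike-ins were at 0. All 37 genes had the same coordinates in GENCODE release 44. Sequences were read from the GRCh38 genome, and 37 of 37 equalled the annotation's transcripts. An anticodon was the only match of its 3 bases, after C or T and before A or G, with its first base between positions 26 and 40 of the tRNA. Copies on chromosome 1 were aligned without gaps.

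All 37 genes are named. Nuclear genes named are those of the machinery list past the threshold with the 3 largest rises and falls, *MYCN*, the 3 most abundant nuclear copies and the cell type markers. *PTCD2*, *LRPPRC* and *OSGEPL1* of the machinery list were named in addition, after their values were seen. The members, lists and tests were chosen with earlier results of these data known. The comparison of make-up with gene length and the search of chromosome 1 were chosen after values had been seen.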

Additional observations from a re-analysis of the deposited data

How the results depend on the processing

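The count of mitochondrial genes past the threshold was 0 in each direction. It became 2 higher in Tet without a low-count filter, under DESeq2 and with the replicate block, and 0 to 1 higher and 0 to 3 lower with a library left out, the 1 and the 3 without EtOH replicate 2. Of 481 refits of single mitochondrial genes, 200 that left out a library and 251 others kept their direction and their side of the threshold. Over all genes, 33 higher and 20 lower became 185 and 117 without the filter, 290 and 209 under DESeq2, 421 and 254 with the replicate block, and 0 to 361 higher and 0 to 331 lower with a library left out (the highest without EtOH replicate 2). Under RLE size factors 13 were lower. The machinery list, with 1 gene lower, gave 0 to 2. Why these counts moved was not tested.

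Directions turned with a library left out for 9 mitochondrial genes, whose log2 fold changes ran from -0.39 to 0.71 (*MT-TV*), -0.21 to 0.41 (*MT-ND2*), -0.47 to 0.31 (*MT-CO1*), -0.70 to 0.28 (*MT-CO2*), -0.046 to 0.32 (*MT-ATP8*), -0.061 to 0.25 (*MT-ATP6*), -0.70 to 0.10 (*MT-CO3*), -0.40 to 0.13 (*MT-ND5*) and -0.14 to 0.16 (*MT-ND6*). They ran from -0.22 to 0.21 for *MYCN* and from -0.38 to 0.84 for *POLRMT*. With the replicate block, *MT-TV* stood at 0.20 and *MT-CO1* at 0.15. Differences in shares ran from -1.97 to 0.97 percentage points for all 37 genes, -1.96 to 0.94 for the mRNAs and -0.018 to 0.026 for the tRNAs. Log2 differences of ratios ran from -0.10 to 0.27 (tRNA to mRNA), -0.18 to 0.18 (minus to plus strand) and -0.24 to 0.17 (*MT-ND6* to plus-strand mRNAs). The ratio of *MT-RNR2* to *MT-RNR1* ran from -0.95 to -0.37. From medians of counts per kilobase, tRNA to mRNA was -0.17 and minus to plus strand -0.63.

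Same-numbered libraries deviated together with correlations of 0.0603, 0.510 and 0.219. No label ties the numbers to a batch, so what these libraries shared beyond a number is not known. Scaling by nuclear genes alone moved effective library sizes by at most 0.0886% relative to each other. With 3 libraries in each group and SEs up to 0.74, differences of the size seen in most members were not detectable, and the smallest p that an exact test allowed was 0.1.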
